A study of Mus musculus with 24 samples.

Results

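The effect of losing Smyd3 was measured across the RNA of livers from mice treated with diethylnitrosamine (DEN), a carcinogen used to bring on liver tumours in rodents. The members are all genes of the deposited table with a normalized count of at least 10 in at least 3 of the 12 RNA libraries, which kept 16471 of 37583 genes. Each was compared between 3 DEN-treated Smyd3 knockout livers (DEN_KO) and 3 DEN-treated wild type livers (DEN_WT).

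Smyd3 belongs to the SET and MYND domain family of lysine methyltransferases. Its protein has been reported to methylate lysines of histones and of the kinase MAP3K2, and to bind at the start sites of active genes. Hepatocytes turn DEN into reactive species that alkylate DNA, and tumours grow out months later. Such livers commonly switch on genes of the fetal liver and of cell division while genes of adult hepatocyte metabolism are turned down, and the comparison asks how that state differs when the methyltransferase is missing.

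All mice were labelled C57BL6/CBA in strain (the growth protocol writes C57Bl6) and were 8.5 months old when the liver was taken. The DEN groups had received a single intraperitoneal dose of 25 mg/kg, and untreated wild type (WT) and untreated knockout (KO) mice, 3 of each, completed the design. Knockout mice carry a cassette trapped in intron 5 of the gene, made from embryonic stem cells of 1 clone name and present in every cell of the animal, so the difference is not specific to hepatocytes. Exons before the trap lie upstream of the cassette. Each library was labelled with its own mouse, so the spread within a group is the spread between animals. The sums of the normalized counts lay between 22320634 and 28973396 per library, and pairs of libraries within a group correlated at 0.956 or more on the log2 scale. The second principal component of the 12 libraries, 19.9% of the variance, put the 3 DEN_KO livers at -69.6 to -62.1 and every other library at -3.5 or above. On that axis the treated knockout livers lay apart from untreated livers as well as from DEN_WT. The first component, 41.2% of the variance, instead set DEN_WT apart, at 83.5 to 110.5. There DEN_KO lay at -15.7 to 17.5 and the untreated livers at -50 to -41.4.

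Smyd3 (ENSMUSG00000055067, chromosome 1, 180882091 to 181448172 on build mm9) read 57, 71 and 74 normalized counts in the 3 DEN_WT livers and 12, 3 and 8 in the 3 DEN_KO livers. The groups did not overlap, and limma put the difference at -3.13 ± 0.41 (SE) on the log2(value + 1) scale with an adjusted p of 0.000182. In untreated livers it read 79, 89 and 59 in WT and 29, 17 and 22 in KO, again with no overlap, a difference of -1.71 ± 0.41 that missed the threshold (adjusted p = 0.0651). The interaction of treatment and genotype did not pass either (adjusted p = 0.108). The count covers the whole gene, the exons before the trap included.

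Loss of Smyd3 in DEN-treated liver went with differences in a large share of the transcriptome. The values were tested with limma over all 12 libraries, with Benjamini-Hochberg adjustment over all tested genes. At an adjusted p under 0.05, 5576 of 16471 genes (33.9%) differed, 2708 higher (16.4%) and 2868 lower (17.4%) in DEN_KO. Of these, 1726 were higher (10.5% of all tested genes) and 1570 lower (9.53%) by more than 1 on the log2 scale, and 513 higher (3.11%) and 483 lower (2.93%) by more than 2. The median over all tested genes was -0.06. The groups did not overlap in either direction for 4341 genes that were lower (26.4%) and 3881 that were higher (23.6%). The filter on low values let in 73 genes that reached 10 in DEN_WT alone and 67 in DEN_KO alone.

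The genes with the smallest p-values among those lower in DEN_KO included markers that liver tumours and injured liver share. Spp1, the secreted matrix protein osteopontin, read 9331, 13627 and 16227 in DEN_WT and 1212, 1470 and 811 in DEN_KO (log2 difference -3.49 ± 0.27 SE, limma adjusted p = 1.32e-05, n = 3 each). Gpc3, a cell-surface proteoglycan of fetal liver and hepatocellular carcinoma, read 2224, 3385 and 2704 against 153, 146 and 113 (-4.32 ± 0.37, adjusted p = 2.78e-05). In both genes every DEN_KO liver lay below every DEN_WT liver by a wide margin, and untreated livers read 371 to 878 for Spp1 and 18 to 59 for Gpc3. Sidt1, a transmembrane protein of the systemic RNA interference defective family, read 176, 265 and 178 against 3, 5 and 3 (-5.47 ± 0.43, adjusted p = 1.89e-05), so that DEN_KO was at the level of untreated livers (2 to 8). Nid1, the basement membrane protein nidogen, read 3888, 8096 and 6923 against 634, 919 and 452 (-3.23 ± 0.28, adjusted p = 2.78e-05). Bulk RNA does not tell fewer cells of a type from less RNA per cell, which holds for every gene here.

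The other leading lower genes covered several functions. P2rx7, an ATP-gated ion channel, read 647, 709 and 670 in DEN_WT and 102, 144 and 94 in DEN_KO. Btg2, an antiproliferative gene, read 3228, 3652 and 2590 against 480, 689 and 275. Sae1, a subunit of the enzyme that activates SUMO, read 2052, 1921 and 1799 against 563, 648 and 562. All 3 were above every other library in DEN_WT, with differences of -2.59 ± 0.23, -2.79 ± 0.26 and -1.70 ± 0.15 (limma adjusted p = 2.94e-05, 3.57e-05 and 3.25e-05). Wfdc15b (701, 874 and 809 against 39, 37 and 9), Jub (539, 708 and 823 against 58, 83 and 105) and 9430020K01Rik (712, 869 and 678 against 197, 207 and 153) had the same order of groups. BC055004 and Pm20d1 complete the 12 and are taken up with the untreated livers, since their genotype difference was present there too.

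Genes leading the other direction included subunits of the mitochondrial respiratory chain and a urea cycle enzyme. Uqcrq, a subunit of respiratory complex III, read 1311, 1302 and 1253 in DEN_WT and 7197, 7706 and 7914 in DEN_KO (2.56 ± 0.19, limma adjusted p = 1.18e-05). Ndufs6, a subunit of complex I, read 200, 262 and 273 against 1443, 1362 and 1401 (2.52 ± 0.21, adjusted p = 2.78e-05). In both genes DEN_KO also lay above all untreated livers, which read 1785 to 3255 for Uqcrq and 270 to 626 for Ndufs6. Glrx5, a glutaredoxin of iron-sulfur cluster assembly, read 697, 479 and 682 against 2689, 2482 and 2675 (2.10 ± 0.17, adjusted p = 2.78e-05). Asl, which splits argininosuccinate in the urea cycle, read 2388, 1036 and 1798 against 12687, 11621 and 14451 (2.97 ± 0.26, adjusted p = 2.78e-05). Pomp, a chaperone of proteasome assembly, read 412, 326 and 388 against 1546, 1483 and 1492 (2.01 ± 0.17, adjusted p = 2.78e-05). Asl and Pomp were again higher in DEN_KO than in any untreated library (4078 to 6664 and 437 to 709).

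For some leading higher genes DEN_KO was instead near the untreated level. Isoc2b, an isochorismatase domain protein, read 66, 67 and 64 in DEN_WT, 410, 474 and 476 in DEN_KO and 439 to 620 in the untreated livers (2.77 ± 0.17, limma adjusted p = 6.29e-06). Isoc2a, its neighbour in the gene family, read 923, 690 and 873 against 2625, 2462 and 3050, with 2117 to 2676 untreated. Here DEN_WT was the group that stood apart. Gm4956 read 3, 3 and 7 in DEN_WT, 254, 186 and 381 in DEN_KO and 528 to 1673 untreated. Its DEN_KO livers thus lay above DEN_WT but below every untreated liver. Tmem205, Ndufa6, Gm12164 and Gm15590 complete the 12, with DEN_KO above every other library in each. Gm12164 and Gm15590 are pseudogenes in the authors' table, and reads from a near-identical parent gene cannot be told from theirs.

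**Figure D1:**
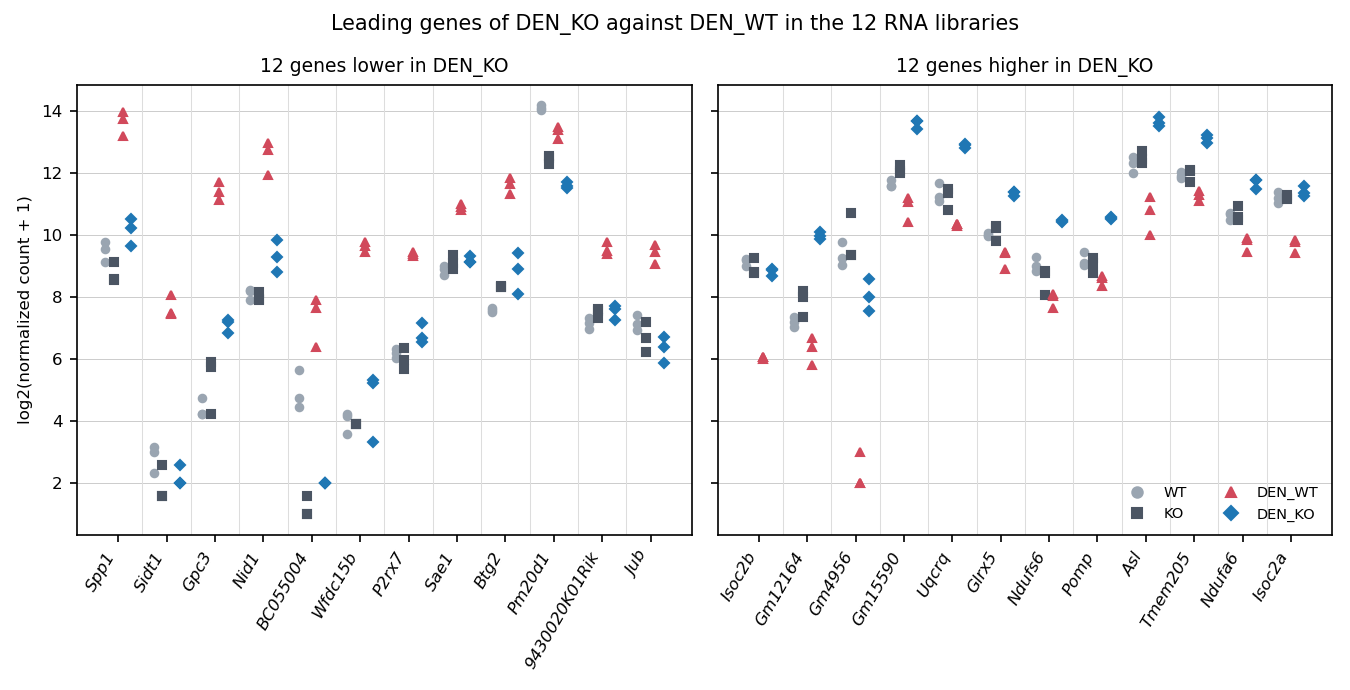
Normalized counts on a log2(value + 1) axis of the 12 leading genes in each direction, with 1 symbol per library and colours for the 4 groups. DEN_WT (triangles) lies above DEN_KO (diamonds) in the left panel and below it in the right panel for every gene, while the position of DEN_KO relative to the untreated groups (circles and squares) differs from gene to gene.

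The sequences around 4 of these starts are shown because a Smyd3-precipitated region of the deposited list lies within 1 kb of each. They are RefSeq promoters of build GRCm38.p6, from 250 bases before to 50 bases after the start, 5′ to 3′ on the gene's strand. Capitals mark CCCTCC or its reverse complement GGAGGG, a motif reported in earlier work for binding by human SMYD3. Sidt1 (minus strand, chr16:44332789-44333088) and Gpc3 (minus strand, chrX:52613925-52614224) are the 2 lower genes of smallest p with such a region and an entry in the promoter table, and Glrx5 (plus strand, chr12:105032368-105032667) and Ndufs6 (minus strand, chr13:73328433-73328732) the 2 higher genes of smallest p with both.
Sidt1: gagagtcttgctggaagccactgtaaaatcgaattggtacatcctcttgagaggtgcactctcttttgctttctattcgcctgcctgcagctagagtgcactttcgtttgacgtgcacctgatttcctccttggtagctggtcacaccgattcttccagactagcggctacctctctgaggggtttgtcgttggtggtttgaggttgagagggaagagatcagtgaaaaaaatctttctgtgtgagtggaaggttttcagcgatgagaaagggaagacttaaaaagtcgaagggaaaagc
Gpc3: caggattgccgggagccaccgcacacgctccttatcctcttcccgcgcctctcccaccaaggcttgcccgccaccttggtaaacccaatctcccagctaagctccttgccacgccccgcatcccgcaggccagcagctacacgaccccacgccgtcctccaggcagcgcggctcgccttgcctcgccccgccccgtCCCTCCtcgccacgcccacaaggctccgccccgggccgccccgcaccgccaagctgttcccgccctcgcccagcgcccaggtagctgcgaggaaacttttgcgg
Glrx5: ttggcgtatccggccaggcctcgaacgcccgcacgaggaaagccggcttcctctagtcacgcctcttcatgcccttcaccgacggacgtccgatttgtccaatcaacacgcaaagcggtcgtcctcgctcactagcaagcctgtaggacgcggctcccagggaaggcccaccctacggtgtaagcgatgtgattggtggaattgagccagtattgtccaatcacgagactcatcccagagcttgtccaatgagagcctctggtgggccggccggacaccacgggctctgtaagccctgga
Ndufs6: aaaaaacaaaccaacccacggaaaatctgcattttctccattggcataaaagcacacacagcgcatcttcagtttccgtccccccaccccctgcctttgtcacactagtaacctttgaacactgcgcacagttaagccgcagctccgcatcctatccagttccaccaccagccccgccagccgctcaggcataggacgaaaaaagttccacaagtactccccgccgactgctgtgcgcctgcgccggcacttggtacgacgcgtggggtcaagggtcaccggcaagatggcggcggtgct
Gpc3 held the motif once, starting at position -54 from the start, and the other 3 windows held no match. For these shares each gene was taken at its first listed start. Of all 27025 genes of the RefSeq table, 38.4% held CCCTCC on either strand in this window. Of 11202 tested genes with an entry 48.1% did. The share was 55.7% of 2134 genes lower in DEN_KO, 43.5% of 1571 genes higher and 47.0% of 7497 genes not past the threshold. GC content moved with it, at medians of 61.8%, 59.0% and 60.3% in the same order, and its part in the difference was not tested. A match is a description of letters, not a binding site.

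Lists of genes with a common function differed widely in how many members were lower or higher. The share of lower genes over all tested genes (17.4%) and of higher genes (16.4%) is the background for each count below. The plot of gene lists orders them by their median difference, from the oncofetal and tumour markers (median -2.05) to the major urinary proteins (median 2.75, and 1.62 without DEN_WT replicate 2). Where a list had 2 or fewer members called in a direction, leaving out 1 library moved that count by at most 2 in the lists with counts given below, except for the higher macrophage markers.

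**Figure D2:**
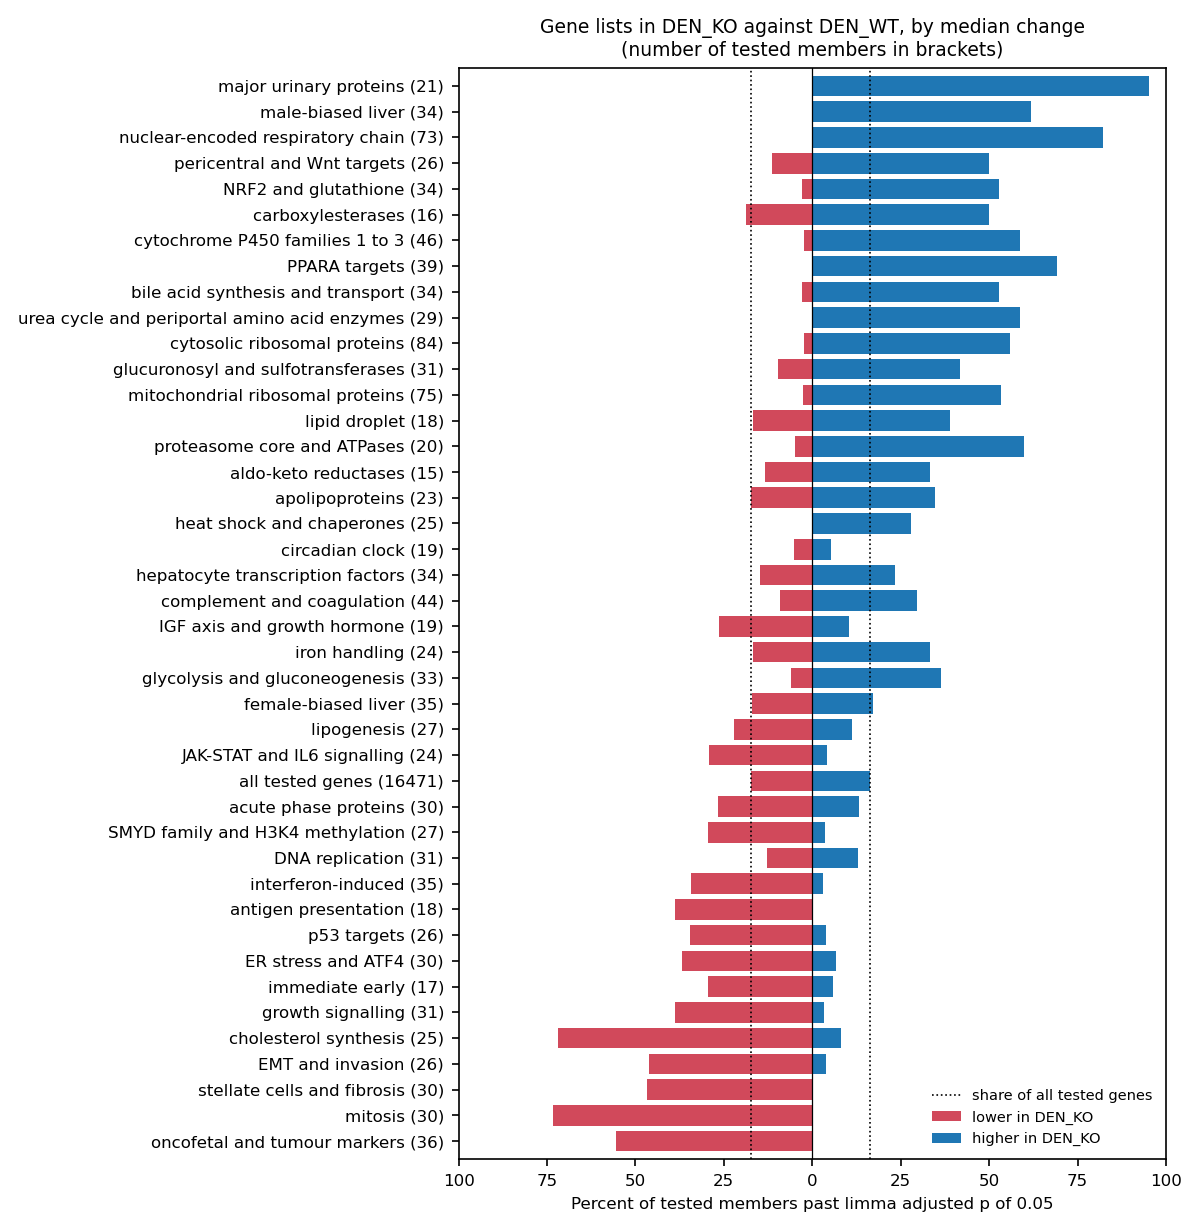
Percent of tested members lower (left) or higher (right) in DEN_KO at a limma adjusted p under 0.05, for each gene list, sorted by the median log2 difference. Dotted lines mark the 17.4% and 16.4% of all 16471 genes, and mitosis, cholesterol synthesis and the tumour markers lie far past the left line while urinary proteins and the respiratory chain lie far past the right.

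Of 36 tested oncofetal and tumour markers, 20 were lower in DEN_KO and 0 higher. Igdcc4, a surface protein of the immunoglobulin superfamily, read 1120, 1255 and 1105 against 39, 92 and 19 (-4.78 ± 0.47, limma adjusted p = 3.98e-05). Cdcp1, a transmembrane glycoprotein, read 283, 228 and 288 against 22, 14 and 12 (-4.01 ± 0.41, adjusted p = 4.62e-05). Lcn2, an iron-binding lipocalin of inflamed liver, read 16278, 11421 and 14401 against 319, 4371 and 457 (-4.01 ± 0.68, adjusted p = 0.00082). DEN_KO replicate 2 was the high value for Lcn2, though still below every DEN_WT liver.

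That liver stood apart for the classical fetal markers, which did not pass the test and were picked out after their values were seen. Afp, the fetal serum protein, read 308, 5867 and 208 in DEN_KO and 2417, 5067 and 2504 in DEN_WT (-2.11 ± 0.90, limma adjusted p = 0.0866). H19, an imprinted fetal RNA, read 67, 16737 and 229 against 14044, 7549 and 3305 (-3.46 ± 1.49, adjusted p = 0.0891), and the neighbouring growth factor gene Igf2 read 33, 1974 and 37 against 255, 64 and 89. DEN_KO replicate 2 held the highest value of all 12 libraries for all 3 genes, whereas DEN_KO replicates 1 and 3 lay below every DEN_WT liver. With DEN_KO replicate 2 left out, the limma differences were -3.62 ± 0.44 for Afp, -5.82 ± 0.88 for H19 and -1.67 ± 0.50 for Igf2. The genes were picked with that library's high values known, so these differences describe the other livers and are not a test. The summed level of the whole list was 10245, 50527 and 9021 in DEN_KO and 69152 to 73465 in DEN_WT. Leaving out 1 DEN library at a time gave 16 to 25 members lower. The most, 25 with a median of -2.66, came without DEN_KO replicate 2.

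Genes of mitosis had a common sign, with 22 of 30 lower in DEN_KO, 0 higher and a median of -1.70. Ccna2, the cyclin of S phase and mitotic entry, read 134, 460 and 128 against 42, 60 and 32 (-2.18 ± 0.52, limma adjusted p = 0.00664). Cenpa, the histone of centromeres, read 348, 733 and 319 against 97, 169 and 90 (-1.92 ± 0.35, adjusted p = 0.0013). DEN_WT replicate 2 was high for both, and for the list as a whole its sum of 7825 exceeded the 2661 and 2193 of its group. Without it 5 members were lower (median -1.16), and without DEN_KO replicate 1 or 3 the count was 12 or 9. DNA replication genes had no common sign, with 4 of 31 lower and 4 higher. There were 2 lower without DEN_WT replicate 2 or DEN_KO replicate 3, and 2 higher without DEN_WT replicate 3 or DEN_KO replicate 3. Rrm2, the regulated subunit of ribonucleotide reductase, read 307, 702 and 258 against 175, 102 and 118, and fell by 1.57 ± 0.35 on the log2 scale (adjusted p = 0.00444). Gins4, a subunit of the replicative helicase, read 132, 114 and 111 against 334, 259 and 281 and was higher by 1.28 ± 0.18 (adjusted p = 0.00027).

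Of 31 growth signalling genes 12 were lower and 1 higher (median -0.57, and -0.34 without DEN_WT replicate 2). Among them were Dusp6, a phosphatase of ERK that ERK itself induces (2156, 3983 and 4370 against 628, 921 and 1122), and Spry2, another feedback inhibitor of that pathway (91, 334 and 305 against 42, 34 and 29). Their differences were -1.95 ± 0.27 and -2.57 ± 0.44 (limma adjusted p = 0.000244 and 0.000842). The ligands Tgfa and Hbegf, which activate the EGF receptor, differed by -1.18 ± 0.17 and -2.42 ± 0.39 (adjusted p = 0.000274 and 0.000602). In all 4 genes no DEN_KO liver reached a DEN_WT liver.

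Of 24 genes of JAK-STAT and IL6 signalling, 7 were lower and 1 higher, and of 17 immediate early genes 5 were lower and 1 higher. Osmr, the oncostatin M receptor, read 322, 235 and 277 against 63, 94 and 96 (-1.72 ± 0.28, limma adjusted p = 0.000618). Klf6, a zinc finger factor, read 583, 969 and 708 against 237, 236 and 205 (-1.70 ± 0.23, adjusted p = 0.000215). Among 26 targets of the tumour suppressor p53, 9 fell, Btg2 included, and 1 rose. Polk, a polymerase that copies past damaged bases, read 235, 309 and 235 against 80, 80 and 69 (-1.74 ± 0.21, adjusted p = 0.000132).

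Enzymes of serine synthesis, which ATF4 induces, were among the lower genes. Of 30 ER stress and ATF4 genes 11 were lower and 2 higher. Phgdh, the first enzyme of serine synthesis, read 186, 1118 and 847 in DEN_WT and 9, 33 and 18 in DEN_KO (-4.92 ± 0.61, limma adjusted p = 0.000136). Psat1, the second enzyme, read 355, 1247 and 865 against 35, 92 and 20 (-4.14 ± 0.58, adjusted p = 0.000268), and Psph, the last, 351, 632 and 593 against 150, 232 and 169 (-1.49 ± 0.24, adjusted p = 0.000553). All 3 enzymes of the pathway had separate groups, with DEN_WT replicate 1 the lowest of its group each time.

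Many matrix and invasion genes were lower in DEN_KO. Of 30 stellate cell and fibrosis genes 14 were lower and 0 higher (median -1.21, and -0.77 without DEN_WT replicate 1), and of 26 EMT and invasion genes 12 were lower and 1 higher (median -0.97). Col3a1, a fibrillar collagen, read 2813, 1168 and 1052 against 268, 393 and 231 (-2.38 ± 0.35, limma adjusted p = 0.00034). Mmp14, a membrane-bound collagenase, read 1613, 1884 and 1969 against 556, 570 and 383 (-1.87 ± 0.29, adjusted p = 0.000448). Mmp12, the macrophage elastase, read 374, 366 and 437 against 12, 36 and 5 (-4.78 ± 0.68, adjusted p = 0.000299). Of 10 stellate cell markers 3 were lower and 1 higher, and their summed level was 6174 to 8877 in DEN_WT and 5134 to 6571 in DEN_KO, so the ranges overlapped. The part of stellate cell number in the matrix genes was not tested.

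Of 20 macrophage markers 5 were lower and 2 higher (7 higher without DEN_WT replicate 1). Their summed level was 12657 to 27772 in DEN_WT and 16819 to 21369 in DEN_KO. The median of the list was 0.31, at 0.69 without DEN_WT replicate 1 and -0.17 without DEN_WT replicate 2. The lower members named next therefore do not stand for the list. Mpeg1, a pore protein of phagocytes, read 9714, 7104 and 10223 against 1761, 2229 and 2124 (-2.13 ± 0.23, limma adjusted p = 6.83e-05). Gpnmb, which marks lipid-laden macrophages, read 637, 122 and 220 against 8, 38 and 2 (-4.67 ± 0.83, adjusted p = 0.00113). Endothelial markers had 6 of 20 lower and 0 higher with summed levels of 16570 to 17190 in DEN_WT and 14340 to 16595 in DEN_KO. Cholangiocyte markers had 5 of 11 lower (3 without DEN_WT replicate 1 or 2, or without DEN_KO replicate 1 or 3). Their sum was 12099 to 18943 in DEN_WT and 3034 to 3603 in DEN_KO. Spp1 made up most of that sum in DEN_WT, but less than the other markers together in DEN_KO. None of 11 markers of T and NK cells and none of 5 of neutrophils passed the test. Of 6 hepatocyte markers 4 were higher (2 without DEN_WT replicate 3 or DEN_KO replicate 1) and 0 lower. Their summed level was nonetheless smaller in DEN_KO, at 1548020 to 2300770 against 2762688 to 4075958 in DEN_WT.

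Antigen presentation and interferon genes were lower in part. Of 18 antigen presentation genes 7 were lower and 0 higher. H2-Aa, a class II chain, read 3105, 1905 and 4045 against 600, 911 and 675 (-2.0 ± 0.33, limma adjusted p = 0.000749), and Ciita, the factor that switches class II genes on, read 144, 89 and 154 against 29, 39 and 31 (-1.91 ± 0.48, adjusted p = 0.00805). Of 35 interferon-induced genes 12 were lower and 1 higher, with 7 lower when DEN_WT replicate 1 or DEN_KO replicate 1 was left out. Their median difference was -0.35 in treated and -0.36 in untreated liver, and that of the antigen presentation genes -0.44 and -0.31. The interaction term was called for 3 of the 35 and 1 of the 18, against 16.6% of all genes. Igtp, an interferon-induced GTPase, read 2078, 2340 and 3435 against 906, 932 and 984. It was lower in untreated knockout livers too (-1.81, limma adjusted p = 0.00757). Bst2, the virus-tethering protein tetherin, was the member that was higher (2740, 1415 and 1548 against 4212, 4717 and 5438).

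Secreted liver proteins went both ways. Of 30 acute phase proteins 8 were lower and 4 higher (8 higher without DEN_WT replicate 1). Of 44 complement and coagulation genes 13 were higher (8 without DEN_WT replicate 2 or DEN_KO replicate 3) and 4 lower (2 without DEN_WT replicate 2, DEN_KO replicate 2 or DEN_KO replicate 3). Cd14, the endotoxin coreceptor, read 1839, 1433 and 2494 against 181, 302 and 98 (-3.41 ± 0.35, limma adjusted p = 5.06e-05). Kng1, the kinin precursor, read 86328, 150387 and 103875 against 44765, 35195 and 37440 (-1.5 ± 0.26, adjusted p = 0.000959). C8g, a subunit of the membrane attack complex, was instead higher (4915, 5375 and 6123 against 12021, 12249 and 11722; 1.14 ± 0.17, adjusted p = 0.000437).

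Many drug-metabolizing genes were higher in DEN_KO. Of 46 cytochrome P450 genes of families 1 to 3, 27 were higher and 1 lower (median 1.00). Cyp1a2, an oxidase of the pericentral zone, read 4795, 1149 and 4936 against 24315, 12997 and 23221 (2.69 ± 0.44, limma adjusted p = 0.000711), and Cyp2f2, a periportal member, read 8837, 3685 and 13445 against 38605, 36206 and 51075 (2.45 ± 0.38, adjusted p = 0.000498). Cyp2e1, which activates DEN, was chosen after its values were seen. It read 46023, 11828 and 34714 in DEN_WT, 131842, 82292 and 112643 in DEN_KO and 163206 to 234001 untreated (2.01 ± 0.44, adjusted p = 0.00384). DEN_WT replicate 2 was the lowest of its group for all 3, and DEN_KO lay above DEN_WT throughout.

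Of 34 NRF2 and glutathione genes 18 were higher and 1 lower (median 1.06, and 0.70 without DEN_WT replicate 2), with Gsta2, a glutathione transferase, at 141, 89 and 230 against 1930, 894 and 1157 (3.13 ± 0.34, limma adjusted p = 6.33e-05). Of 16 carboxylesterases 8 were higher and 3 lower, with Ces1f at 2497, 1357 and 2477 against 17017, 9389 and 12277 (2.62 ± 0.25, adjusted p = 3.75e-05). Of 31 glucuronosyl and sulfotransferases 13 were higher and 3 lower (1 lower without DEN_WT replicate 2, DEN_WT replicate 3 or DEN_KO replicate 1). Of 34 genes of bile acid synthesis and transport 18 were higher and 1 lower (median 0.93), including Abcb4, the phospholipid exporter of bile (2334, 1785 and 1842 against 4328, 5620 and 4514). Copies of the Ces1, Gsta and P450 clusters are near identical, so reads may be split between them.

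Of 39 targets of PPARA, the fatty acid sensor that drives fat oxidation, 27 were higher and 0 lower (median 0.99). Cpt2, which passes acyl chains into mitochondria, read 1889, 1381 and 1673 against 3965, 6156 and 4339 (1.53 ± 0.20, limma adjusted p = 0.000182). Acot1, a cytosolic thioesterase, read 124, 71 and 111 against 815, 2766 and 974 (3.70 ± 0.45, adjusted p = 0.000121). Creb3l3, a liver factor of the fasting response, read 5405, 4304 and 4257 against 10450, 16463 and 13977. DEN_KO replicate 2 was the highest library of its group for all 3 genes. Cholesterol synthesis went the other way, with 18 of 25 lower and 2 higher (median -0.86). Dhcr7, its last step, read 4332, 4959 and 5298 against 2398, 2020 and 1748 (-1.25 ± 0.19, adjusted p = 0.000379). Lpl, a lipase that adult liver expresses little, read 3976, 6396 and 5691 against 865, 819 and 317 (-3.11 ± 0.40, adjusted p = 0.00016). Of 27 lipogenesis genes 6 were lower and 3 higher (7 higher without DEN_KO replicate 2).

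Of 29 urea cycle and periportal amino acid enzymes 17 were higher and 0 lower (median 0.81). The count was 10 without DEN_WT replicate 2, 11 without DEN_WT replicate 3 and 8 without DEN_KO replicate 1. Hpd, an enzyme of tyrosine breakdown, read 7331, 2432 and 8057 against 32098, 25095 and 35051 (2.54 ± 0.35, limma adjusted p = 0.000255), and Ass1, the step before Asl, 4796, 1482 and 3489 against 19336, 9295 and 14825 (2.25 ± 0.38, adjusted p = 0.000863). Of 26 pericentral and Wnt target genes 13 were higher and 3 lower (median 1.20, and 0.77 without DEN_WT replicate 2), the Wnt-responsive factor gene Tcf7 among the lower (157, 249 and 203 against 87, 108 and 72). Members of both zones were therefore among the higher genes.

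Of 34 hepatocyte transcription factors 8 were higher and 5 lower (3 lower without DEN_WT replicate 2, DEN_WT replicate 3 or DEN_KO replicate 1). Nr1i3, the xenobiotic receptor CAR, read 1374, 1008 and 1995 against 11516, 11454 and 13284 (3.10 ± 0.38, limma adjusted p = 0.000132). Gata6, an endoderm factor, read 319, 430 and 459 against 177, 159 and 169 (-1.24 ± 0.22, adjusted p = 0.00108). Of 34 male-biased liver genes 21 were higher and 0 lower (median 1.30), while of 35 female-biased genes 6 were lower and 6 higher (10 higher without DEN_WT replicate 1). Of 21 major urinary protein genes, carriers of male pheromones, 20 were higher and 0 lower. Mup21 read 1817, 783 and 1837 against 8111, 7499 and 8471 (2.54 ± 0.28, adjusted p = 7.15e-05). The summed level of the list was 553279, 99735 and 407819 in DEN_WT and 1131777 to 1544835 in DEN_KO. The clustered Mup copies are near identical, so their reads may be split between them and the calls are not separate measurements.

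Iron handling, IGF axis and aldo-keto reductase genes each held members of both signs. Fth1 and Ftl1, the ferritin chains, were higher (6583, 6173 and 8126 against 28153, 27061 and 23890 for Fth1; 1.93 ± 0.21, limma adjusted p = 7.59e-05), and of 24 iron handling genes 8 were higher and 4 lower. Akr1b3, the aldose reductase, was lower (1118, 1054 and 734 against 217, 255 and 166; -2.18 ± 0.33, adjusted p = 0.00042), and of 15 aldo-keto reductases 5 were higher and 2 lower. Of 19 genes of the IGF axis and growth hormone 5 were lower and 2 higher. The counts were 3 and 0 without DEN_WT replicate 2, and 4 and 0 without DEN_KO replicate 3. Igfbp1, a stress-induced IGF-binding protein, read 14331, 46712 and 29834 against 7564, 6499 and 1211 (-2.80 ± 0.81, adjusted p = 0.0176). Its adjusted p was 0.071 without DEN_WT replicate 2 and 0.087 without DEN_KO replicate 3.

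Of 73 nuclear-encoded subunits 60 were higher in DEN_KO and 0 lower (median 1.21). Every DEN_KO liver lay above every DEN_WT liver for 64 of them and below for 1. Over all tested genes these shares were 23.6% above and 26.4% below. Members of complexes I and III led, with Uqcrq and Ndufs6 above and Ndufb9 at 1864, 1346 and 1701 against 5750, 4749 and 4965 (1.66 ± 0.16, limma adjusted p = 3.98e-05). The next 3 lists were added after the data were seen. Of 84 cytosolic ribosomal protein genes 47 were higher and 2 lower (median 0.73), of 75 mitochondrial ribosomal protein genes 40 and 2 (median 0.56), and of 20 proteasome core and ATPase genes 12 and 1 (median 0.50). Mrpl14 read 405, 378 and 478 against 1922, 1883 and 2220 (2.26 ± 0.22, adjusted p = 3.79e-05).

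Gene span and GC content moved with the direction of the difference. When genes were ranked by span into 5 classes, 30.4% of the 3295 shortest (median 1.0 kb) were higher and 6.9% lower in DEN_KO. Of the 3293 longest (median 106 kb) 9.5% were higher and 22.6% lower. Of 1692 pseudogenes 31.9% were higher and 4.4% lower. Ranked by GC content, 8.5% of the class of lowest GC were higher and 25.8% lower, against 24.6% and 11.4% of the class of highest GC. The median of short minus long genes was 0.36, 0.45 and 0.30 in the DEN_KO libraries, -0.32, -0.38 and -0.15 in DEN_WT and -0.19 to 0.15 in the untreated libraries. With trends over GC content and span removed from each library, 57 respiratory chain genes and 34 cytosolic ribosomal genes were higher, with medians of 1.22 and 0.52. The part of span and GC content in these differences was not otherwise tested. Over all genes that setting gave 5289 calls, 4304 of them among the 5576, and none of those 4304 changed sign.

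**Figure D3:**
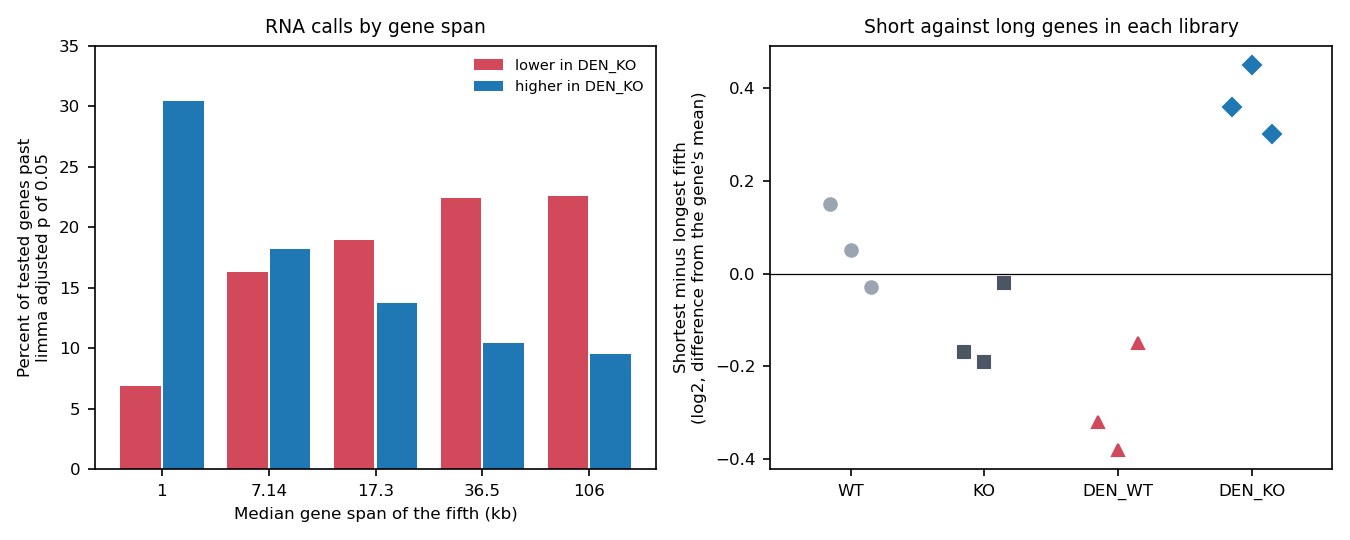
Left, percent of tested genes lower or higher in DEN_KO in 5 classes of gene span, labelled by the median span in kb. Right, the median log2 deviation of the shortest class minus that of the longest in each library (each gene's deviation is from its mean over the 12 libraries), where the 3 DEN_KO libraries lie at 0.30 to 0.45 and the 3 DEN_WT libraries at -0.38 to -0.15.

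Of 27 SMYD family and H3K4 methylation genes 8 were lower, Smyd3 included, and 1 higher. The lower count was 4 without DEN_WT replicate 3 and 5 without DEN_WT replicate 2, DEN_KO replicate 2 or DEN_KO replicate 3. Smyd5, another family member, read 909, 1270 and 1083 against 438, 601 and 455 (-1.13 ± 0.18, limma adjusted p = 0.000548), and Setd7, an H3K4 monomethyltransferase, 312, 424 and 410 against 133, 237 and 236 (-0.95 ± 0.24, adjusted p = 0.009). Of 25 heat shock and chaperone genes 7 were higher and 0 lower. That count was 4 without DEN_WT replicate 1 or 3, 11 without DEN_KO replicate 1 and 3 without DEN_KO replicate 2 or 3.

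Against the untreated livers, the position of DEN_KO differed between lists. For tumour markers and mitosis DEN_KO lay between the untreated livers and DEN_WT: the median log2 level of the tumour markers was 8.10 to 8.71 in DEN_WT, 6.01 to 7.46 in DEN_KO and 3.97 to 4.91 untreated. For mitosis the same medians were 6.02 to 7.87, 4.70 to 5.43 and 3.17 to 3.64. For the respiratory chain DEN_KO lay at or just above the untreated livers instead, at 11.02 to 11.20 against 10.58 to 11 untreated and 9.74 to 10.17 in DEN_WT. For cytosolic ribosomal genes DEN_KO also lay above, at 11.15 to 11.32, while DEN_WT (10.46 to 10.76) lay within the untreated range (10.36 to 10.89). For cholesterol synthesis DEN_KO (10.74 to 11.11) lay within the untreated range (10.58 to 11.11) and DEN_WT above it (11.69 to 12.14). The stellate cell and fibrosis list had that order too, with DEN_KO at 6.84 to 6.95, untreated livers at 6.48 to 6.95 and DEN_WT at 7.63 to 8.70. The genotype difference differed from that in untreated liver by the interaction term for 14 of 36 tumour markers, 7 of 30 mitosis genes, 56 of 73 respiratory chain genes and 27 of 84 cytosolic ribosomal genes, against 16.6% of all genes. Over all genes, DEN_WT lay above all 9 other libraries for 1912 (11.61%) and below for 1243 (7.55%). DEN_KO lay above for 1293 (7.85%) and below for 1094 (6.64%).

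**Figure D4:**
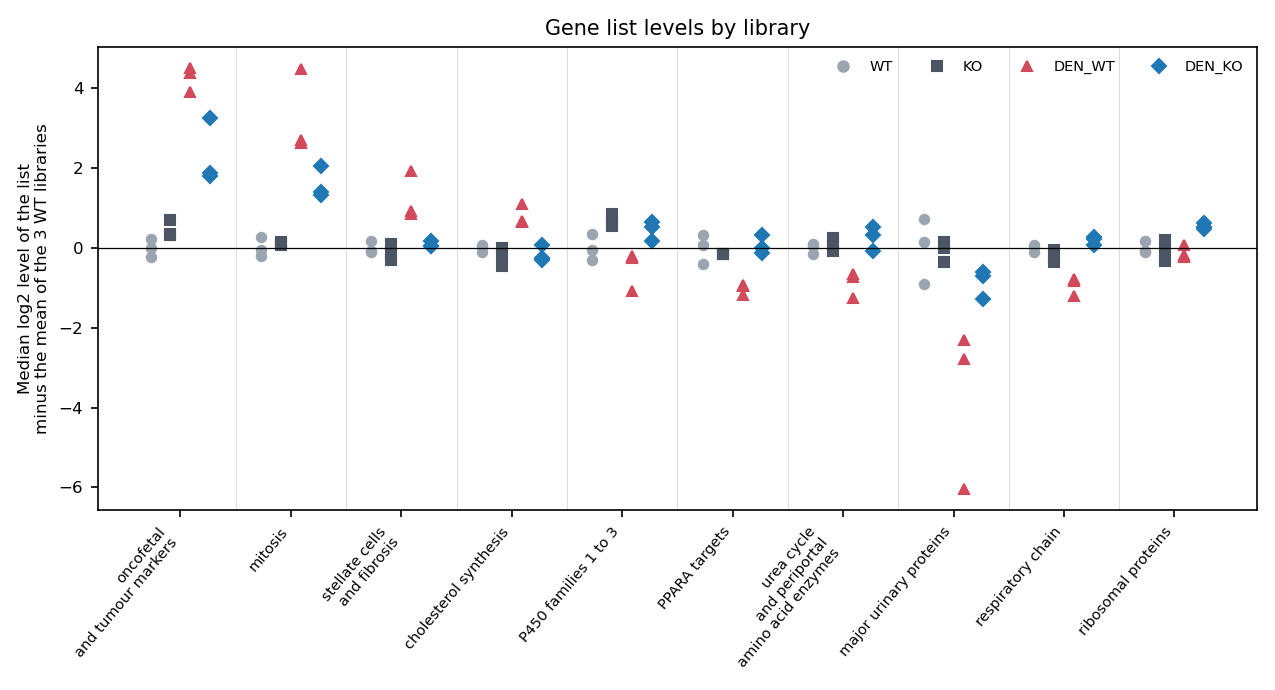
Median log2(value + 1) of 10 gene lists in each of the 12 libraries, given as the difference from the mean of the 3 WT libraries, with 1 symbol per library. DEN_KO (diamonds) lies between DEN_WT (triangles) and untreated livers for the tumour markers and mitosis, near untreated livers for PPARA targets, and above them for ribosomal proteins.

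In untreated livers, loss of Smyd3 went with far fewer differences. There 191 of 16471 genes (1.16%) passed the limma threshold, 90 higher (0.546%) and 101 lower (0.613%), while 2492 had an unadjusted p under 0.05. The count was 65 without WT replicate 2, 62 without KO replicate 1, 63 without KO replicate 2 and 560 without KO replicate 3. The genotype difference itself differed between treated and untreated livers for 2727 genes (16.6%) by the interaction term, 1438 with a higher value in treated liver (8.73%) and 1289 with a lower one (7.83%). The 2 contrasts share no library, but the same fit over all 12 libraries gave each gene the same variance estimate in both. Their calls are therefore not independent. Of the 191 genes, 56 were lower in both contrasts and 28 higher in both, while 9 were lower in treated and higher in untreated liver and 4 the reverse.

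Genes lower in both included Pm20d1, an enzyme that joins fatty acids to amino acids, which read 8724, 10633 and 11373 in DEN_WT, 3329, 2966 and 3058 in DEN_KO, 16851 to 18695 in WT and 5028 to 6069 in KO. Its difference was -1.71 ± 0.16 in treated liver (limma adjusted p = 3.57e-05), and no knockout liver, treated or not, reached a wild type liver. BC055004 read 84, 240 and 200 against 3, 3 and 3 when treated and 21 to 49 against 1 to 2 when not. Cdcp1, Pla2g4b, Tnfsf10 (the death ligand TRAIL), Gm5834, Rfk (riboflavin kinase), Adamts15 and Erlin1 were lower in both as well. Pla2g4b, a phospholipase A2, read 161, 204 and 185 against 25, 24 and 21 in treated liver and 179 to 232 against 8 to 31 untreated. Sfi1, a centrosomal protein, was higher in both (531, 501 and 644 against 1212, 963 and 1440 treated, 434 to 634 against 1299 to 1414 untreated).

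The neighbourhood of the trapped gene was examined because a knockout line can carry flanking sequence of the strain of its stem cells. Within 5 Mb of Smyd3, 61 genes were tested, of which 10 were lower and 10 higher in treated liver and 1 lower in untreated liver. Read against 17.4% lower and 16.4% higher over all genes, these counts are near the background. Fh1, the fumarase of the citric acid cycle, was the leading one (1383, 1082 and 1024 against 4259, 4124 and 3677; 1.80 ± 0.18, limma adjusted p = 3.98e-05). The untreated call was Kmo, an enzyme of tryptophan breakdown, at 5560 to 7370 in WT and 3256 to 4078 in KO, and in treated liver it read 3526 to 4059 against 2834 to 3606.

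RNA differences were then set beside the chromatin regions deposited from DEN-treated livers, which come as 1 list per antibody and genotype without heights. The lists hold 27324 regions for Smyd3 in wild type, 15579 for H3K4me3 (the trimethyl mark of active starts) in wild type and 17491 for H3K4me3 in knockout. With regions within 1 kb of the gene start, 284 tested genes had H3K4me3 in the wild type list alone. Of these 34.9% were lower in DEN_KO and 8.5% higher (median -0.82). For 593 genes with the mark in the knockout list alone the shares were 11.3% and 21.6% (median 0.11). For 11329 genes with it in both lists they were 19.7% and 14.7%. The 4265 genes with it in neither list had 11.1% and 20.8% (median 0.14), close to those in the knockout list alone. The classes also differed in median level over the DEN libraries. It was 51.9 for the wild type list alone, 78.8 for the knockout list alone, 406.3 for both and 44.7 for neither. Since a list shows only whether a region was called, the labels name 2 precipitations for each list and how they were combined is not given in the sources used here, these shares have no replicate error.

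Named genes were on both sides. Gpc3, Wfdc15b, Cdcp1 and Phgdh had an H3K4me3 region of 2195, 1637, 933 and 1045 bases in the wild type list and none in the knockout list. Gldn, which encodes gliomedin and was picked out after its values were seen, read 608, 1821 and 1252 against 18, 36 and 5 and had a region of 2599 bases in the wild type list alone. Acot1 and Alas2, the first enzyme of heme synthesis in red cells, had a region in the knockout list alone, of 918 and 2290 bases, and both were higher in DEN_KO. Gm15590 and Cyp1a2 shared that pattern, with regions of 869 and 2852 bases. H2-Aa went the other way, with a region of 1651 bases in the knockout list alone and a lower RNA level in DEN_KO. It was 1 of 67 lower genes in that class (11.3% of 593), against 128 higher genes (21.6%). Most leading genes, Sidt1, Nid1, Btg2, Uqcrq and Asl among them, had a region in both lists.

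A Smyd3-precipitated region lay at the start of 10582 tested genes. Of these 19.4% were lower and 14.3% higher in DEN_KO, against 13.8% and 20.3% of 5889 genes without one. The 2 classes also differed in median level over the DEN libraries (364.9 against 87.2) and in median span (23 against 8.0 kb). Within the class of shortest span the shares were 8.0% lower and 29.7% higher with a region and 6.4% and 30.7% without. Within the class of longest span they were 23.1% and 8.7% with, and 21.1% and 12.2% without. In span class 2, counted from the shortest, the gap in higher genes was reversed, at 19.6% with a region and 15.4% without. The lower shares there were 16.2% and 16.4%. In span class 3 the higher shares were 13.5% with and 14.1% without. In span class 4 the higher share was again smaller with a region. Among genes of the highest level class the shares were 19.8% lower and 21.9% higher with a region and 13.8% and 35.2% without. In the other level classes the higher share was also smaller with a region. It was 9.9% with and 18.5% without in the 2nd level class, counted from the lowest. In the 3rd it was 12.3% and 23.6%. The gap in higher genes was thus smaller than over all genes or reversed within the span classes. It was wider within the 2nd, 3rd and highest level classes. The region was present at Gpc3, Sidt1, Nid1, Sae1 and Btg2 among the leading lower genes, and at Uqcrq, Glrx5, Ndufs6 and Pomp among the leading higher genes. The Smyd3 list held none within 1 kb of Spp1, P2rx7, Isoc2b or Asl.

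**Figure D5:**
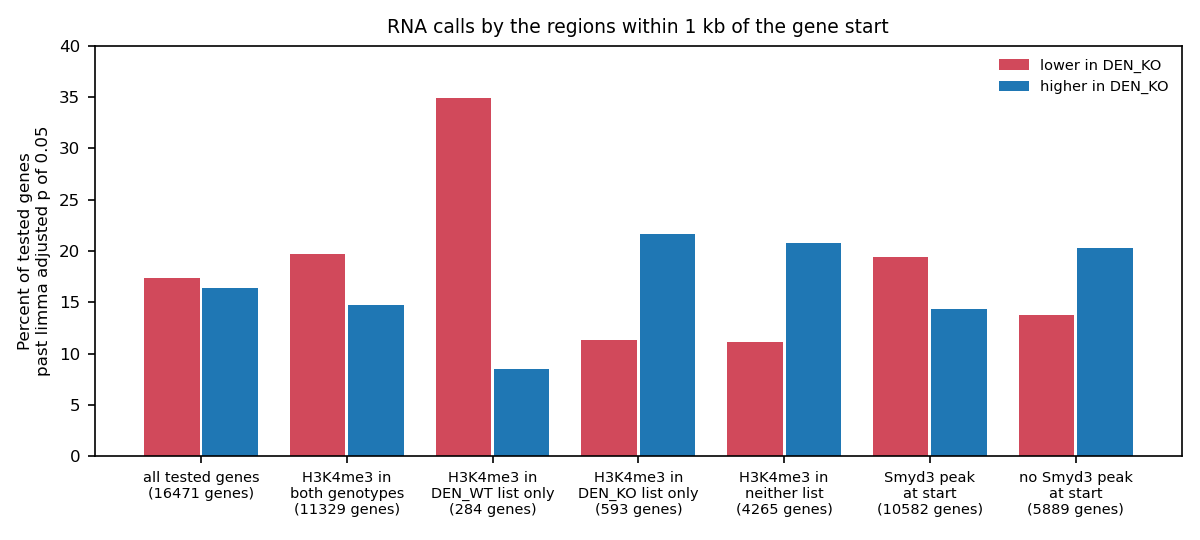
Percent of tested genes lower or higher in DEN_KO at a limma adjusted p under 0.05, by the deposited regions within 1 kb of the gene start. Genes with H3K4me3 in the wild type list alone hold the tallest bar (34.9% lower), and classes with and without a Smyd3 region differ by a few percentage points in each direction.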

How the data were processed

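RNA was measured in 12 liver libraries, 3 mice for each of 4 groups. The authors deposited normalized counts rounded to whole numbers, treated here as a score and not as raw counts. DESeq, Bowtie2, Cufflinks, cutadapt, TopHat2 2.0.9 and build mm9 appear in the submitters' processing notes, with no role or order. The sources used here do not state the counting tool, annotation, strand setting or peak caller. The GC content of each gene is a fraction in the deposited table, per the file headers. The chromatin lists carry a score of 0 on every line, so only region ends were used. Read depth is unknown, and library totals are sums of normalized values.

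From these values log2(value + 1) was computed for genes with a value of 10 or more in at least 3 libraries (21112 of 37583 genes fell below). limma 3.58.1 in R 4.3.3 fitted the 4 group means with trended variance moderation and 8 residual degrees of freedom, and p-values were Benjamini-Hochberg adjusted over all tested genes. The script was tested on simulated data. Python 3.11.15, pandas 2.3.3 and matplotlib 3.10.9 served for joins and plots. Same-numbered DEN_WT and DEN_KO libraries did not deviate together (correlations of -0.05, 0.12 and 0.03), so no pairing was used. The members and gene lists were chosen with earlier results of these data known.

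Genes were named by a rule: the 12 of smallest p in each direction (mean of at least 100 in the higher group, no overlap), up to 4 per gene list (mean of at least 50), up to 10 called in the same direction in both genotype contrasts, and those within 5 Mb of Smyd3. Afp, H19, Igf2, Cyp2e1, Gldn and Kmo stand outside it and were chosen after their values were seen. Promoters came from a RefSeq table of build GRCm38.p6, matched by symbol for 11202 of 16471 genes, and its coordinates are not those of the mm9 files. Alternatives were another pseudocount, filter, scaling, variance model or weighting, a replicate block, and leaving out each library. Removal of GC and span trends together and protein-coding genes alone were chosen after seeing the data.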

Additional observations from a re-analysis of the deposited data

Results flagged for a closer look

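The genotype difference of DEN-treated liver minus that of untreated liver passed the limma threshold for 2727 genes, each flagged because the 2 conditions differ under the same contrast. The values below are that difference of differences on the log2 scale, for the genes named above, and no explanation was tested.

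Among genes with a more negative genotype difference in treated liver, the value was -6.18 for Gldn, -5.2 for Gpc3, -5.1 for Igdcc4, -5.09 for Lcn2, -4.91 for Wfdc15b, -4.78 for Gpnmb and -4.65 for Phgdh. Next in size, the value was -4.56 for Sidt1, -4.12 for Igfbp1, -4.05 for Mmp12, -3.89 for Cd14, -3.81 for Psat1, -3.55 for Btg2 and -3.12 for Nid1. The value was further -3.12 for Spry2, -2.76 for Spp1, -2.62 for Jub, -2.53 for Lpl, -2.48 for Akr1b3, -2.4 for Mpeg1 and -2.4 for P2rx7. It came to -2.36 for 9430020K01Rik, -2.26 for Hbegf, -2.24 for Mmp14, -2.13 for Col3a1, -2.07 for Rrm2, -2.02 for Cenpa and -1.96 for Sae1. The interaction term was -1.89 for Klf6, -1.86 for Gata6, -1.72 for Dusp6, -1.7 for H2-Aa, -1.69 for Setd7, -1.45 for Tgfa and -1.42 for Polk. It stood at -1.4 for Dhcr7, -1.39 for Tcf7, -1.36 for Osmr and -1.1 for Psph.

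Among genes with a more positive genotype difference in treated liver, the value was 5.27 for Gm4956, 3.56 for Gsta2, 3.12 for Acot1, 3.02 for Gm12164, 2.99 for Ndufs6, 2.95 for Isoc2b and 2.84 for Hpd. Next in size, the value was 2.76 for Asl, 2.68 for Uqcrq, 2.66 for Mrpl14, 2.62 for Cyp2f2, 2.48 for Mup21, 2.3 for Ces1f and 2.24 for Cyp2e1. The value was further 2.23 for Gm15590, 2.18 for Pomp, 2.13 for Alas2, 2.07 for Fth1, 1.99 for Glrx5, 1.96 for Cyp1a2 and 1.95 for Nr1i3. It came to 1.93 for Ass1, 1.91 for Ndufa6, 1.8 for Fh1, 1.79 for Tmem205, 1.78 for Ndufb9, 1.75 for Cpt2 and 1.7 for Isoc2a. The interaction term was 1.61 for Creb3l3, 1.5 for Ftl1, 1.48 for Gins4, 1.4 for C8g, 1.4 for Bst2 and 1.23 for Gm5834. Groups of 3 libraries are too small for the test of single outlying libraries, so none was applied.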

How the results depend on the processing

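The count of 5576 genes lay between 5092 (no filter on low values) and 6756 (library weights) over the alternatives that kept all libraries and all biotypes, and between 4020 (without DEN_KO replicate 3) and 5102 (without DEN_WT replicate 1) when a library was left out. In the same runs the higher genes numbered 1997 to 2547 and the lower genes 2018 to 2555. Between 70% and 99.2% of the 5576 genes were called again under each alternative, none with the opposite sign. Protein-coding genes alone gave 4838 calls, of which 42.9% were higher, against 48.6% of the main calls. Leaving out a library moved the untreated count of 191 to between 62 and 560, and the interaction count of 2727 to between 1787 and 3084. Of genes with H3K4me3 in the wild type list alone, 29.3% were lower when the region had to cover the start base, against 34.9% within 1 kb. The cause was not tested.

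With the replicate number as a block, a number that pairs no mice here, the counts were 5288 for treated liver, 5134 with the GC trend also removed, 152 for untreated liver and 2463 for the interaction. The block put Afp past the threshold (-2.11, adjusted p = 0.035 by limma) and moved no other named gene across it. Igf2, which did not pass the test, went from 0.26 to 0 with the GC trend removed, with or without the replicate block, and lay between -1.67 and 1.26 when a library was left out (-0.15 without DEN_WT replicate 2, -1.67 without DEN_KO replicate 2). Kmo, which did not pass in treated liver, went from -0.18 to 0.06 with GC and span trends removed. Igfbp1 lost its call without DEN_WT replicate 2 or DEN_KO replicate 3. The unknown read depth limits statements on genes near the minimum of 10.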
